A study of Mus musculus with 12 samples.

Results

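Phase II conjugation enzymes attach glutathione, glucuronic acid or sulfate to drugs, steroids, bile acids and products of oxidation, which makes them more soluble and lets transporters carry them into bile or blood. The genes described here are the glutathione S-transferases of the alpha, mu, pi, theta, kappa, omega and zeta classes (Gsta, Gstm, Gstp, Gstt, Gstk, Gsto and Gstz) with the membrane-bound Mgst genes, the UDP-glycosyltransferases (Ugt) and the cytosolic sulfotransferases (Sult). They were chosen by symbol alone: every Ensembl identifier whose mouse symbol is one of these stems followed by a family or gene number was taken, whatever its value. This gave 54 genes of the 16346 in the table of normalized counts, 23 of them glutathione transferases, 21 Ugt genes and 10 Sult genes. Of these, 45 had a mean normalized count of at least 10 and were tested, 21, 17 and 7 in the same order, among 12366 genes tested in all. The 9 below that level were Gstp3, Mgst2, Sult2a2, Sult3a1, Sult6b1, Ugt1a2, Ugt1a8, Ugt2a2 and Ugt8a, none of which exceeded 16.3 normalized counts in any library. The mouse annotation holds 14 more symbols of this form, which were not analysed here.

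Liver is the main site of these reactions, and most of them take place in hepatocytes. Each family draws on its own activated donor: glutathione itself, UDP-glucuronate made from UDP-glucose, and the sulfate donor PAPS. Ugt1a transcripts are unusual in that each has its own first exon and all share the remaining exons of 1 locus.

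The study asked how the kinase module of Mediator, a coactivator complex that joins transcription factors to RNA polymerase II, acts on liver genes during feeding. Bulk liver RNA was sequenced from 12 C57BL6J mice aged 12 weeks, 2 in each of 6 groups. Control mice carried floxed Med13 alleles (Med13 fl/fl) without Cre. MED13-LKO mice carried the same alleles with Alb-Cre, which the study used for a knockout selective for hepatocytes. Bulk liver also holds other cells, whose Med13 was not examined here. Both genotypes were either fasted overnight for 16 h, or fasted and then given normal chow for 4 h together with water holding 30% sucrose or 30% fructose. No group received chow with plain water here, so chow and sugar cannot be told apart, and the fed mice were killed later in the day than the fasted mice. Sex was not given in the labels, and transcripts of the Y-linked genes Ddx3y, Eif2s3y, Kdm5d and Uty were found in all 12 libraries.

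Several features of the whole table bear on the values below. The libraries labelled MED13-LKO did not hold less Med13 RNA than the controls, ranging from 646 to 1055 normalized counts against 578 to 796 (log2 fold change 0.22, adjusted p = 0.20 by limma). The position of the floxed exons within the counted transcripts is not known from the files, so this does not check the labels, and MED13-LKO below means the libraries that carry this label. Reads counted on genes were estimated at 16100000 to 24200000 a library. Normalized counts summed to 21060000 to 24150000 in the control libraries and 17310000 to 18740000 in those labelled MED13-LKO. The top 100 genes held 49.3% to 53.5% of these counts in controls and 44.7% to 46.4% in MED13-LKO libraries. Scaling all libraries to equal sums raised the median log2 fold change between genotypes over all genes from 0.01 to 0.32. The genotype differences below are relative to the authors' scaling unless stated otherwise. On the authors' scaling 13.2% of all genes tested were called lower and 12.1% higher. With equal sums 7514 of the 12366 were called, 7109 of them higher. Hepatocyte markers were present in every library, with summed values of 2272380 to 3001800 in controls and 1686830 to 2079520 in MED13-LKO libraries, and 5 of the 6 (Alb, Ttr, Apoa1, Serpina1a and Cps1) were lower in the MED13-LKO libraries. Of the 6 Kupffer cell markers 2 were higher (Cd5l and Marco, sum 2972 to 4147 in controls and 4031 to 5360 in MED13-LKO libraries), and of the 6 sinusoidal endothelial markers 3 (Stab2, Clec4g and Kdr, sum 3333 to 3906 against 3686 to 5233). With equal sums all 6 of each were called higher. Of the stellate markers 3 of 6 were lower, of the cholangiocyte markers 1 of 4, of pericentral hepatocyte genes 5 of 8 and of periportal genes 4 of 6, with none higher. With equal sums 2 stellate, 1 cholangiocyte and 2 pericentral genes were called higher, and 5 pericentral, 1 periportal and 2 hepatocyte genes lower. Lymphocyte markers summed to at most 58.8 and neutrophil markers to at most 65.8. In bulk liver, fewer cells of a type and less RNA per cell cannot be told apart. Liver genes known to be higher in males moved with the genotype as well: 10 of 12 were lower in the MED13-LKO libraries and none higher, and their sum was 333581 to 1061840 in controls against 80720 to 125266. Of 8 tested genes known to be higher in females, 4 were higher and none lower. The part of any of these markers in the results on conjugation enzymes was not tested. The control library fructose replicate 1 stood apart, with 27 genes more than 2-fold above every other library, where no other library had more than 10, and 45 more than 2-fold below, where the others had 4 to 40. It also had the highest sum of the genes higher in males. Some results that rest on it are given with and without it. For others only its part is stated.

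With the 3 diets averaged, 28 of the 45 tested conjugation genes differed between genotypes, 19 lower and 9 higher in the MED13-LKO libraries (limma on log2(normalized count + 1), Benjamini-Hochberg adjusted p under 0.05). The same test called 25.3% of all genes, 13.2% lower and 12.1% higher. The 28 genes amount to 62.2% of the tested conjugation genes. The lower side was led by Sult2a8, Ugt1a10, Ugt1a9, Gsta1, Gstm3, Gstm1 and Mgst1, and the higher side by Ugt2b37, Sult1e1, Sult5a1 and Sult1c2. The median log2 fold change was -0.11 over the conjugation genes and 0.01 over all genes tested. All 3 families moved in both directions: 8 glutathione transferases were lower and 4 higher, 9 Ugt genes lower and 2 higher, and 2 Sult genes lower and 3 higher. Values of the 6 control and the 6 MED13-LKO mice did not overlap for 13 of the genes, 10 lower and 3 higher, against 8.85% of all genes tested. The split between directions depended on scaling. With all libraries scaled to equal 75th percentiles, 18 of the 45 were called lower and 9 higher. With equal sums, 7514 of all 12366 genes tested were called, 7109 of them higher. On that scale 22 of the 45 conjugation genes were called higher and 7 lower. Without control fructose replicate 1, 26 were called, 19 lower and 7 higher. With equal sums all 9 higher genes were still called higher on that scale, and Sult2a8, Ugt1a10, Ugt1a9, Gstm1, Mgst1, Ugt2b5 and Ugt2b35 were still called lower, while the rest of the 19 were not, and of the 28 calls Gsto1, Gstt1 and Ugt3a2 changed sign. Log2 fold changes on this scale understate the changes of genes with low values.

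**Figure D1:**
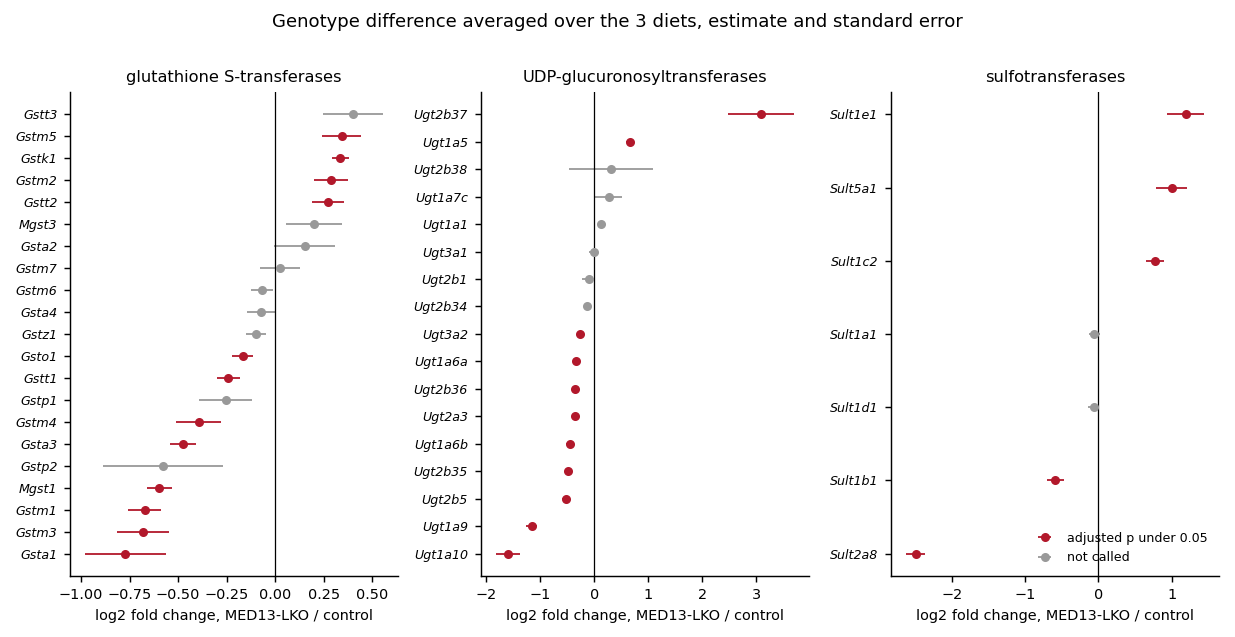
Log2 fold change between MED13-LKO and control libraries averaged over the 3 diets (horizontal axis) for the 45 tested genes, as the estimate with its standard error, in a panel for each family with its own axis range. Red points have an adjusted p under 0.05 and grey points do not; Sult2a8 lies lowest at -2.49 and Ugt2b37 highest at 3.09.

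Reads cannot always be given to 1 member of such families. Of the 45 tested genes, 21 have under 10% of their 31-base subsequences in common with any other annotated gene, and 14 of these were called, 9 lower and 5 higher. The other 14 calls concern genes with more shared sequence, and their values depend on how the estimation divided shared reads.

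Sult2a8, Ugt1a9, Gstm1 and Mgst1 had the 4 lowest fold changes among the genes without overlap between genotypes and are shown with the 250 bases before their transcription start in RefSeq on GRCm38.p6. Gsta3, the leading alpha-class gene, is added because it holds a motif match. Capitals mark matches on either strand to TGACNNNGC, the core of the antioxidant response element bound by NRF2 (Mgst1 and Gsta3), and to GCGTG, the core of the element bound by the aryl hydrocarbon receptor (Gstm1). The windows are chr6:138140277-138140526 on the plus strand for Mgst1, chr3:108017974-108018223 on the minus strand for Gstm1, chr1:21240335-21240584 on the plus strand for Gsta3, chr1:88070529-88070778 on the plus strand for Ugt1a9 and chr7:14446588-14446837 on the minus strand for Sult2a8.
Mgst1: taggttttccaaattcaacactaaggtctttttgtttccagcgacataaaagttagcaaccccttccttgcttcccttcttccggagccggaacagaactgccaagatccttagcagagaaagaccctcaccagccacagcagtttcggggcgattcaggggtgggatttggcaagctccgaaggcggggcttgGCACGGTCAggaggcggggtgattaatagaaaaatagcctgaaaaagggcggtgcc
Gstm1: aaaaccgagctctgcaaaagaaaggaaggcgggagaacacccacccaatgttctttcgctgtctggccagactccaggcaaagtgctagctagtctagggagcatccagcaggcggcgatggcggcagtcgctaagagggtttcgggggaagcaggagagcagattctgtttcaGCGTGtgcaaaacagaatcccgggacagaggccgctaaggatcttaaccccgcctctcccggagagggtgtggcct
Gsta3: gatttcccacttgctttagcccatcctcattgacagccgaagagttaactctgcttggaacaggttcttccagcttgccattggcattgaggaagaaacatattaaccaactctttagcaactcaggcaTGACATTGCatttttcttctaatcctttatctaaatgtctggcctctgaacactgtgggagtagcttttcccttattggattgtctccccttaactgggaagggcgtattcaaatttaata
Ugt1a9: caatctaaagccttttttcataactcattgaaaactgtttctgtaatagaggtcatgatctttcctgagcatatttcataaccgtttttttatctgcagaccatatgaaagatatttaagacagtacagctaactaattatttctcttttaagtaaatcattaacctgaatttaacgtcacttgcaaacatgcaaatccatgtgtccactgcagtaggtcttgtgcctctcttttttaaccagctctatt
Sult2a8: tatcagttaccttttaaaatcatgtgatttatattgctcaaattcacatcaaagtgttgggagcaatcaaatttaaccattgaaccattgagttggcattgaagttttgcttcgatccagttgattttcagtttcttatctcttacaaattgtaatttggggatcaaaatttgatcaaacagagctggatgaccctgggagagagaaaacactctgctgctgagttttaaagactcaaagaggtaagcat
Mgst1 and Sult2a8 each have a second annotated start, which holds neither motif, and a second window of Gstm1 overlaps the first and holds the same match. In windows from 250 bases before to 50 after the start, found for 49 of the 54 genes, TGACNNNGC occurred in 4 (8.16%) and GCGTG in 12 (24.5%), against 13.99% and 35.2% of all 27025 genes with a window. Among called genes with a window, TGACNNNGC occurred in 2 of 17 lower genes (Mgst1 and Gsta3) and in 1 of 8 higher genes (Gstm5). A match is a run of letters and not evidence of binding.

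Sulfotransferases held the largest difference of a well-separated gene. Sult2a8, a liver enzyme that sulfates bile acids, had normalized counts of 20231 and 24727 under fasting, 17365 and 25628 under sucrose and 22955 and 20128 under fructose in control mice. In MED13-LKO mice they were 4419 and 4004 under fasting, 4324 and 5327 under sucrose and 2261 and 3524 under fructose. Every MED13-LKO value was under the lowest control value, and control means were 5.49-fold those of MED13-LKO (21839 ± 3145 against 3977 ± 1029, SD, n = 6). The log2 fold change was -2.49 ± 0.13 (SE, adjusted p = 1.6e-06 by limma), and the difference was called in each diet (-2.41 when fasted, -2.14 with sucrose and -2.93 with fructose, all SE 0.23). Sult2a8 lies on chromosome 7 of GRCm38 from 14410686 to 14446769 on the minus strand, and only 3.21% of its subsequences occur elsewhere. Its share of all Sult counts had a median of 59.7% (50.1% to 67.1%) in controls and 21.4% (15.6% to 28.0%) in MED13-LKO mice.

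Sult1b1, which sulfates phenols and thyroid hormones, was the other member of its family called lower. Its normalized counts ran from 589.9 to 1004 with a median of 743 in controls and from 412 to 656 with a median of 469 in MED13-LKO mice, so the groups overlapped (log2 fold change -0.59 ± 0.12, adjusted p = 0.0055). The 3 higher Sult genes had low levels. Sult1c2 had 75.8 and 74.7 under fasting, 72.1 and 98.1 under sucrose and 48.4 and 50.6 under fructose in controls, against 99.2 and 119 under fasting, 105 and 135 under sucrose and 136 and 112 under fructose in MED13-LKO mice, where all 6 values exceeded all 6 control values (log2 fold change 0.77 ± 0.13, adjusted p = 0.0018). Sult1e1, the estrogen sulfotransferase, had 9.03 and 13.2 under fasting, 3.01 and 3.1 under sucrose and 9.92 and 8.99 under fructose in controls, against 20.7 and 18.6 under fasting, 25.9 and 30.4 under sucrose and 10.8 and 7.52 under fructose in MED13-LKO mice (log2 fold change 1.19 ± 0.26, adjusted p = 0.0076). Its 2 sucrose control values lie near 3 reads, and of the diets it was called only with sucrose (log2 fold change 2.84 ± 0.44, adjusted p = 0.0058) and not with fructose (log2 fold change -0.06 ± 0.44, adjusted p = 0.96). Sult5a1, a little-studied member, ran from 44.9 to 138 with a median of 73.6 in controls and from 95.9 to 221 with a median of 168 in MED13-LKO mice, with overlap (log2 fold change 0.998 ± 0.21, adjusted p = 0.0074). Sult1a1, the main phenol sulfotransferase, and Sult1d1, which acts on catecholamines, did not pass the test between genotypes (log2 fold changes -0.06 and -0.07). With equal sums both were called higher in MED13-LKO libraries, at 0.26 and 0.25.

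Among the glutathione transferases, Mgst1 showed the clearest difference and was the most abundant per kilobase of the longest transcript. Mgst1, a membrane-bound enzyme of the endoplasmic reticulum and outer mitochondrial membrane that also reduces lipid peroxides, had 59862 and 62504 under fasting, 54190.0 and 62661 under sucrose and 62807 and 53018 under fructose in controls. MED13-LKO mice had 38719.9 and 37148 under fasting, 40544 and 44836 under sucrose and 37723 and 35931 under fructose. No MED13-LKO value reached the lowest control value (log2 fold change -0.60 ± 0.06, adjusted p = 0.00016), the difference was called in each diet, and none of its subsequences occur in another gene. Per kilobase of its longest transcript the mean was 50706 normalized counts in controls and 33548 in MED13-LKO mice. The gene lies on the plus strand of chromosome 6 (GRCm38) from 138140316 to 138156755.

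Gsta3 and Gstm1 are the leading cytosolic transferases of the alpha and mu classes, Gsta3 being the mouse enzyme that conjugates the aflatoxin epoxide. Gsta3 had 42729.6 and 43555 under fasting, 40983 and 45588 under sucrose and 35011 and 41118 under fructose in controls, against 31253 and 27474 under fasting, 29013 and 31679.5 under sucrose and 31927 and 27734 under fructose in MED13-LKO mice, without overlap (log2 fold change -0.47 ± 0.07, adjusted p = 0.00083). Gstm1 had 22785 and 20004 under fasting, 19702 and 20184 under sucrose and 15069.7 and 20868 under fructose in controls, against 11427 and 13073 under fasting, 11333 and 11801 under sucrose and 14482 and 12013 under fructose in MED13-LKO mice, also without overlap (log2 fold change -0.67 ± 0.09, adjusted p = 0.00048). Both were called when fasted and with sucrose, and neither with fructose, where the adjusted p values by limma were 0.10 and 0.12. Control fructose replicate 1 held the lowest control value of both genes. Gsta3 shares 2.75% of its subsequences and Gstm1 28.8%, mainly with a Gstm2 pseudogene and Gstm3. Gsta1, Gstm3 and Gstm4 were lower as well, at -0.77, -0.68 and -0.39, with overlapping groups. In fructose-fed mice the differences of Gsta1, Gstm3 and Gstm4 were 0.02, 0.18 and -0.08, none of them called. Gsta1 shares 92.9% of its subsequences with annotated genes of the same cluster, so its own level is uncertain. Summed with those of them in the table, its fold change was 0.03 (adjusted p = 0.90), and its call and sign were lost.

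The smaller classes differed by less. Gstk1, the mitochondrial and peroxisomal kappa-class enzyme, was higher in MED13-LKO mice without overlap: controls had 1896 and 1917 under fasting, 1747 and 1765 under sucrose and 1645 and 1709 under fructose, and MED13-LKO mice had 2355 and 2118 under fasting, 2484 and 2325 under sucrose and 2120.2 and 2089 under fructose (log2 fold change 0.34 ± 0.04, adjusted p = 0.00051). Gstm2, Gstm5 and Gstt2 were also called higher, at 0.29, 0.34 and 0.27. Gstt1, of the theta class, was lower at -0.24, which turned to 0.08 with equal sums. Gsto1, an omega-class enzyme with dehydroascorbate reductase activity, was lower at -0.17, which turned to 0.15 and a call in the other direction with equal sums. The calls on Gstm2, Gstm4, Gstm5, Gstt2 and Gsto1 were each lost in 9 of the 12 fits that left out 1 library. Gstm2 kept its call without fasted control 1, fructose control 2 or fasted MED13-LKO 2, Gstm4 without fasted control 2, sucrose control 1 or fructose control 1, and Gstm5 without replicate 1 of the fasted, sucrose or fructose MED13-LKO mice. Gstt2 kept it without sucrose control 1, fructose control 2 or fructose MED13-LKO 2, and Gsto1 without sucrose control 1, fructose control 1 or sucrose MED13-LKO 2. The call on Gsta1 was lost in 4 (without fasted control replicate 1, or replicate 1 of the fasted, replicate 1 of the sucrose or replicate 2 of the fructose MED13-LKO mice). The other 22 calls between genotypes held in all 12. Gstz1, which isomerizes maleylacetoacetate in tyrosine breakdown, did not pass the test (log2 fold change -0.10 ± 0.05, adjusted p = 0.18; 0.22 and called higher with equal sums), nor did Gsta4, which conjugates the lipid peroxidation product 4-hydroxynonenal (log2 fold change -0.07 ± 0.07, adjusted p = 0.52; 0.24 and called higher with equal sums). Gstp1, the pi-class enzyme, had 11947 and 13448 under fasting, 10445 and 9031 under sucrose and 17355 and 9481 under fructose in controls, against 8809.6 and 9654 under fasting, 9619.8 and 10643 under sucrose and 8549 and 11571 under fructose in MED13-LKO mice (log2 fold change -0.26 ± 0.14, adjusted p = 0.21; 0.06 with equal sums). Its highest value came from control fructose replicate 1, and the fold change was -0.11 without that library and -0.40 without the other fructose control, the last with an adjusted p of 0.0094.

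**Figure D2:**
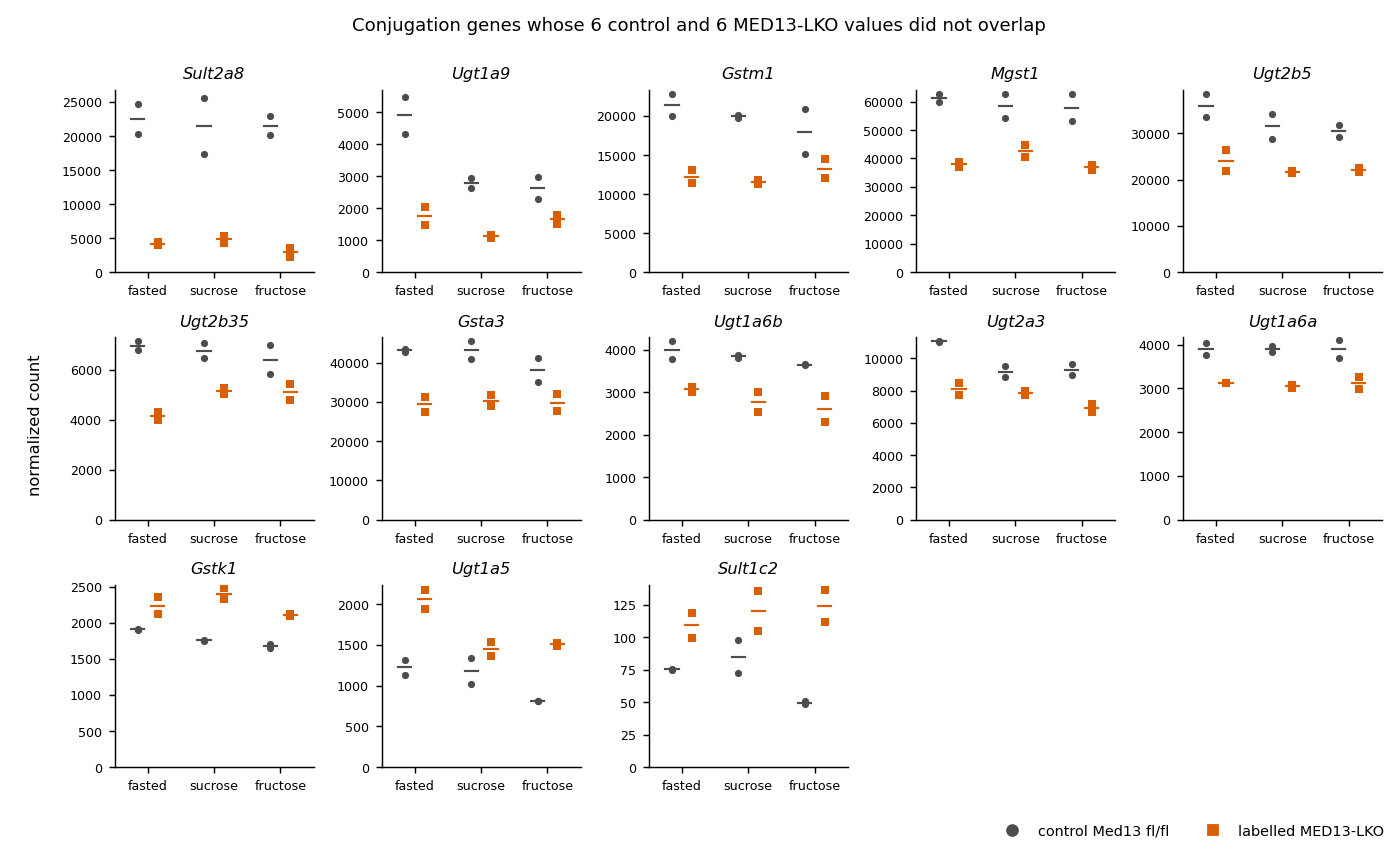
Normalized counts (vertical axes, each from 0) of the 13 genes whose control and MED13-LKO values did not overlap, by diet. Grey circles are control mice, orange squares MED13-LKO mice, and bars the means of 2 mice; the first 10 panels are lower and the last 3 (Gstk1, Ugt1a5 and Sult1c2) higher in MED13-LKO mice.

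Within the Ugt1a locus on chromosome 1 the first-exon variants moved apart. Ugt1a9, whose enzyme acts on phenols and many drugs, had 5480.3 and 4319 under fasting, 2630.4 and 2949 under sucrose and 2298 and 2973 under fructose in controls. MED13-LKO mice had 1482 and 2033 under fasting, 1156 and 1079 under sucrose and 1503 and 1793 under fructose, all under the lowest control value (log2 fold change -1.16 ± 0.10, adjusted p = 4.6e-05). Ugt1a10 was lower too, from 44.9 to 118 with a median of 98 in controls and from 18.4 to 47.7 with a median of 25.9 in MED13-LKO mice (log2 fold change -1.61 ± 0.22, adjusted p = 0.00073), and overlapped only through control fructose replicate 1. Ugt1a6a and Ugt1a6b, which act on planar phenols, were lower by less and without overlap, at -0.33 and -0.45. Ugt1a5 went the other way: controls had 1315 and 1136 under fasting, 1336 and 1017 under sucrose and 814 and 806 under fructose, and MED13-LKO mice had 2169.9 and 1946 under fasting, 1366 and 1538 under sucrose and 1529 and 1488 under fructose, again without overlap (log2 fold change 0.65 ± 0.08, adjusted p = 0.00025). Ugt1a1, the bilirubin-conjugating enzyme and the most abundant of the locus, had from 13364 to 18230.0 with a median of 16079 in controls and from 15436 to 19448 with a median of 17068 in MED13-LKO mice and did not pass the test (log2 fold change 0.13 ± 0.07, adjusted p = 0.17), but was called higher at 0.45 with equal sums. Ugt1a1 took 52.4% to 59.0% of the locus's counts in controls and 64.2% to 66.8% in MED13-LKO mice. The Ugt1a genes share 53.0% to 84.2% of their subsequences. Summed over the locus with the other genes that share sequence, the difference was -0.09 (adjusted p = 0.285), so the differences within the locus rest on the unshared sequence and on how shared reads were divided.

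The Ugt2b genes, a cluster on chromosome 5 whose enzymes act on steroids, bile acids and drugs, included the most abundant Ugt of this liver per length. Ugt2b5 had 33489 and 38595 under fasting, 28759.9 and 34262 under sucrose and 31832 and 29333 under fructose in controls. In MED13-LKO mice the values were 21814 and 26468 under fasting, 21852 and 21511 under sucrose and 22522 and 21627 under fructose, without overlap, and the difference was called in each diet (log2 fold change -0.53 ± 0.07, adjusted p = 0.00056). Ugt2b35 was lower without overlap as well, from 5807 to 7131 with a median of 6867 in controls and from 3974 to 5434 with a median of 4915 in MED13-LKO mice (log2 fold change -0.48 ± 0.06, adjusted p = 0.00038), and Ugt2b36 was lower with overlap (log2 fold change -0.36 ± 0.06, adjusted p = 0.0014). Ugt2b1 and Ugt2b34 did not pass the test (-0.11 and -0.13), and with equal sums they stood at 0.21 and 0.18, the latter called higher. Ugt2b37 was the conjugation gene with the largest positive fold change: controls had 19.2 and 15.7 under fasting, 13 and 13.4 under sucrose and 187 and 9 under fructose, and MED13-LKO mice had 108 and 143 under fasting, 285 and 176 under sucrose and 137 and 439 under fructose (log2 fold change 3.09 ± 0.61, adjusted p = 0.0051). The groups overlapped through 1 library, control fructose replicate 1, without which the fold change was 3.79. Its neighbour Ugt2b38 reached 862 in that library against at most 184 in any other, and its fold change moved from 0.31 (adjusted p = 0.81) to 1.24 (adjusted p = 0.03) without it. Ugt2b5, Ugt2b37 and Ugt2b38 share 56.4%, 34.4% and 52.9% of their subsequences, and their sum, which Ugt2b5 dominates, had a log2 fold change of -0.52 in MED13-LKO mice.

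Ugt2a3 and Ugt3a2 completed the lower Ugt genes. Ugt2a3, which glucuronidates bile acids, ran from 8865 to 11087 with a median of 9560.1 in controls and from 6701 to 8447 with a median of 7722 in MED13-LKO mice, without overlap (log2 fold change -0.37 ± 0.05, adjusted p = 0.00036). Ugt3a2, whose enzyme uses other UDP-sugars than glucuronate, ran from 7966 to 9984 with a median of 9134 and from 6983 to 8155 with a median of 7483 (log2 fold change -0.27 ± 0.05, adjusted p = 0.0027), and with equal sums it stood at 0.05. Its paralogue Ugt3a1 did not pass the test (log2 fold change -0.01 ± 0.08, adjusted p = 0.92), but was called higher at 0.30 with equal sums and lower at -0.21 when both were summed.

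Summed over subfamilies, the lower side was led by Sult2, and the MED13-LKO sums of Mgst, Gsta, Ugt2a and Ugt2b also lay below every control sum. These sums follow the authors' scaling, on which the sum over all genes was lower too. That sum was 17310000 to 18740000 in MED13-LKO libraries and 21060000 to 24150000 in controls. Subfamily sums were not rescaled to equal sums. Sult2 sums were 17365 to 25628 in controls and 2262 to 5327 in MED13-LKO mice, a ratio of means of 0.182. Mgst sums were 53381 to 63075 against 36282 to 45275 (ratio 0.664), and Gsta sums 36992 to 48458 against 30199 to 34949 (ratio 0.736). Ugt2a sums were 8871 to 11092 against 6705 to 8451 (ratio 0.775) and Ugt2b sums 80141 to 103428 against 69430 to 78624 (ratio 0.791). Gstm sums were 23678 on average in controls and 16052 in MED13-LKO mice (ratio 0.678), with 1 control value within the MED13-LKO range. That value was of control fructose replicate 1. Gstk1 alone makes up the Gstk subfamily, which was higher at a ratio of 1.26. Over all conjugation genes the sum took 1.45% to 1.58% of the normalized counts in controls and 1.36% to 1.46% in MED13-LKO libraries, so these shares met at their edges. The mean sum of the glutathione transferases was 160080 in controls and 118055 in MED13-LKO mice, and the Gstt, Gstz, Sult1 and Ugt1a sums had ratios between 0.935 and 0.981.

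**Figure D3:**
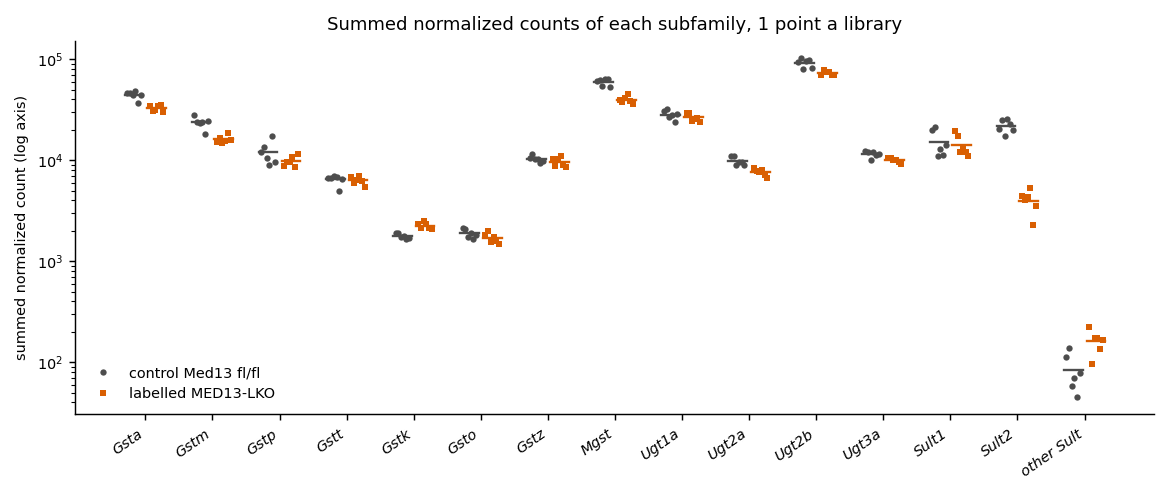
Summed normalized counts of each subfamily on a log axis, 1 point for each of the 12 libraries and a bar at the mean of 6. Sult2 shows the widest gap between control (grey circles) and MED13-LKO libraries (orange squares); subfamilies with sums of a few counts (Sult3 and Ugt8a) are left out.

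Within single diets, 16 conjugation genes differed between genotypes when fasted (15 lower, 1 higher), 13 with sucrose (10 lower, 3 higher) and 10 with fructose (7 lower, 3 higher), against 8.98%, 6.03% and 7.69% of all genes. Sult2a8, Mgst1, Ugt1a6a and Ugt2b5 were called in all 3. Ugt1a9, Ugt1a10, Gstm1, Gstm3 and Gsta3 were called when fasted and with sucrose, Ugt1a5 and Ugt2a3 when fasted and with fructose, and Gstk1 and Ugt1a6b with both sugars. Of the 28 genes called over the diets, 24 had the same sign in each diet, the exceptions being Gsta1, Gstm2, Gstm3 and Sult1e1. These counts rest on 2 mice a group, and counts over all genes moved as well when a library was left out. The fasted count was 6, 6, 9 or 8 without the first or second control or the first or second MED13-LKO mouse, and the sucrose count was 6, 4, 2 or 3 in the same order. The fructose count was 5 or 3 without the first or second MED13-LKO mouse, 8 without control replicate 1, and 6 without either fasted control, which enters only through the shared estimate of spread.

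Feeding was examined by comparing sugar-fed with fasted mice. Averaged over both sugars and genotypes, 9 of the 45 tested genes (20%) were called, a share close to the 21.8% of all genes. All 9 were lower after feeding, where 11% of all genes were lower and 10.7% higher. Equal sums moved the median of all genes from -0.01 to 0.10, with 3073 of 12366 genes called, 2361 of them higher. On that scale 6 conjugation genes were called, Sult1d1, Sult1a1, Ugt1a5 and Ugt1a9 lower and Ugt2b34 and Ugt2b35 higher (0.29 and 0.22). Sult1d1 showed the largest change. Its normalized counts were 9295 and 10687 under fasting, 4515 and 5254 under sucrose and 5237 and 6381 under fructose in controls, against 9866 and 9168 under fasting, 5097 and 6092 under sucrose and 4800.4 and 4443 under fructose in MED13-LKO mice, so that every fasted value exceeded every fed value of both genotypes (log2 fold change -0.91 ± 0.08, adjusted p = 6.8e-05). Each sugar was called in each genotype for Sult1d1, at -1.03 and -0.79 in controls and -0.77 and -1.04 in MED13-LKO mice. Sult1a1, the phenol sulfotransferase, had 9639 and 9807 under fasting, 5955 and 6688 under sucrose and 5170.3 and 7046 under fructose in controls, against 8728 and 7441 under fasting, 6268 and 6611 under sucrose and 6715 and 6024 under fructose in MED13-LKO mice, with every fasted value above every fed value (log2 fold change -0.49 ± 0.08, adjusted p = 0.0031). It was called with either sugar in controls (-0.62 and -0.69), and in MED13-LKO mice the changes were -0.32 and -0.34 without passing the test. Together, sums over the Sult1 genes were 20023 and 21559 in fasted controls and 11134 to 14100 in fed controls.

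Ugt1a9 was lower after feeding (log2 fold change -0.60 ± 0.11, adjusted p = 0.0041), with both sugars called in controls (-0.80 and -0.90) from the values given above. Ugt1a5 was lower at -0.40 and Gstm3 at -0.53, the latter going from 1143 and 707 in fasted controls to between 352 and 555 in fed controls. Gsto1 (log2 fold change -0.26 ± 0.06, adjusted p = 0.011), Ugt2b36, Ugt2a3 and Ugt3a2 (log2 fold changes -0.23, -0.20 and -0.16) were lower by less. The calls on Sult1d1, Sult1a1, Ugt1a9 and Ugt1a5 held without any 1 library, that on Ugt3a2 held in 1 of the 12 fits (without sucrose control replicate 2), and that on Gstm3 was lost without fasted replicate 1 of either genotype or replicate 2 of the sucrose- or fructose-fed MED13-LKO mice. Gsto1 lost its call without fasted MED13-LKO replicate 2, Ugt2b36 without fasted replicate 2 of either genotype, and Ugt2a3 without either fasted control or fasted MED13-LKO replicate 1. Mgst1, Gsta3 and Sult2a8 showed small differences with feeding, at -0.01, -0.03 and -0.13, none of them called.

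**Figure D4:**
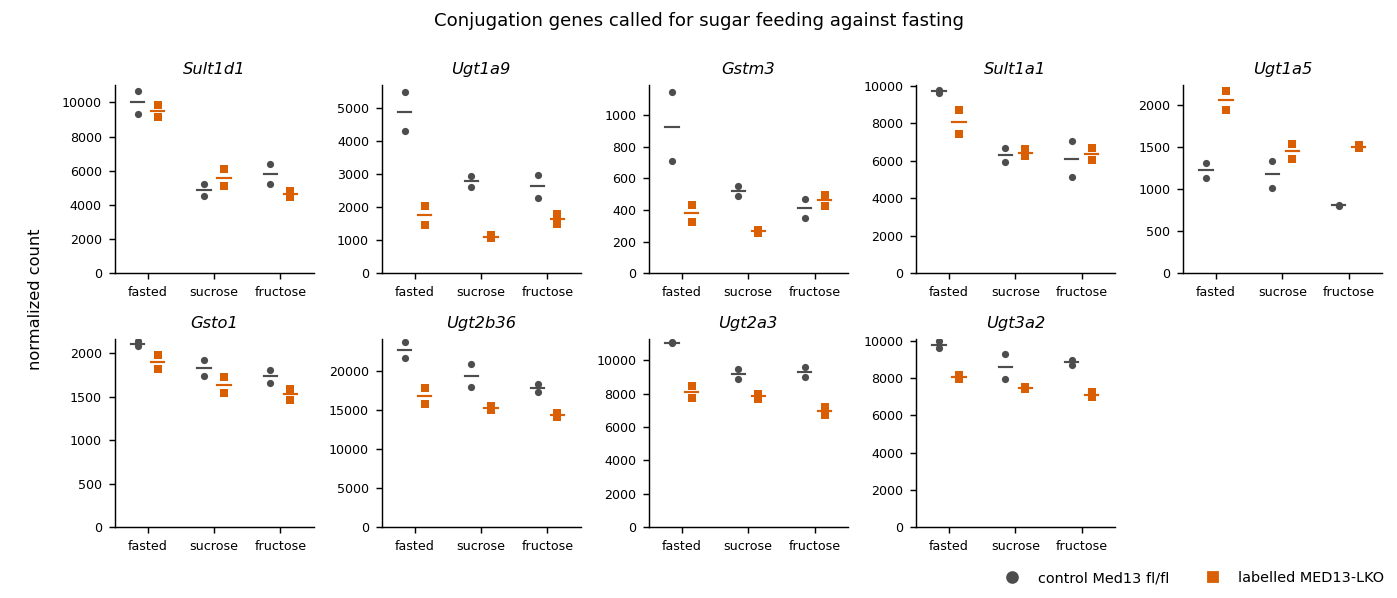
Normalized counts (vertical axes, each from 0) of the 9 genes called for sugar feeding against fasting, by diet, with control mice as grey circles, MED13-LKO mice as orange squares and means of 2 mice as bars. In the Sult1d1 and Sult1a1 panels all 4 fasted mice lie above all 8 fed mice.

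Taken singly, sucrose called 3 conjugation genes in controls (8.57% of all genes) and 1 in MED13-LKO mice (5.71%), and fructose 5 in controls (5.6%) and 1 in MED13-LKO mice (6.53%). These shares of 6.67%, 2.22%, 11.1% and 2.22% lay near or below those of all genes except for fructose in controls. All of these genes were lower than in fasted mice, and all comparisons within a genotype share its 2 fasted mice. Counts over all genes moved too when a library was left out, so such moves are not particular to conjugation genes. The fructose count in controls was the least stable, at 0 without control fructose replicate 1, 10 without replicate 2 and 1 without either fasted control. The sucrose count in controls was 1 without fasted replicate 1 or either sucrose mouse, and that in MED13-LKO mice 0 without fasted or sucrose replicate 1. Sucrose in MED13-LKO mice called 2 genes without either sucrose control or either fructose control, and fructose in MED13-LKO mice 2 without either sucrose control.

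No conjugation gene passed the test between fructose and sucrose, where limma called 0.0404% of all genes. An unadjusted p under 0.05 was found for 7 of the 45 genes and for 1172 of all 12366. Sult2a8 was among the 7, at -0.37 ± 0.16 (SE). Nor did any pass the test of a different feeding response between genotypes, for sucrose (0.146% of all genes called) or fructose (0.0243%). Of the 45, 5 and 9 were under an unadjusted p of 0.05, against 1055 and 1170 of all 12366 genes. For fructose the smallest p was that of Gstm3, whose response in MED13-LKO mice exceeded that in controls by 1.43 ± 0.33 (SE, adjusted p = 0.25). With 2 mice a group, such standard errors leave differences of this size undecided.

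The supply and turnover of donors was examined through gene lists, whose genes were tested in the same fit. The place of a gene on a list, such as Slc35b1 on that for UDP-glucuronate, was assigned and its role was not tested. For comparison with these lists and those below, 13.2% of all genes were called lower and 12.1% higher. With equal sums 7109 of 12366 genes were called higher. For UDP-glucuronate, 4 of 7 tested genes were lower in MED13-LKO mice and none higher. Ugp2, which makes UDP-glucose, had 14529.9 and 14089 under fasting, 16042 and 14214 under sucrose and 11633 and 11466 under fructose in controls, against 7115 and 6709 under fasting, 8096 and 9441 under sucrose and 6800.3 and 7683 under fructose in MED13-LKO mice, without overlap (log2 fold change -0.84 ± 0.06, adjusted p = 8.5e-06). Ugdh, which oxidizes UDP-glucose to UDP-glucuronate, had 5624 and 5614 under fasting, 5534 and 4917 under sucrose and 4424 and 4386 under fructose in controls, against 2683 and 2846 under fasting, 2976 and 3331 under sucrose and 3670.2 and 3349 under fructose in MED13-LKO mice, also without overlap (log2 fold change -0.69 ± 0.05, adjusted p = 1.3e-05). Slc35b1 was lower at -0.45, and Pgm1 at -1.32 with 1 MED13-LKO value far below the rest (170.3 normalized counts against 999.5 to 2083). Pgm1 shares 15.1% of its subsequences with other annotated genes.

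For glutathione, 5 of 15 tested genes of its supply and use were lower and 1 higher. Those lower were Cth, which makes cysteine from cystathionine, Mat1a, the liver enzyme that makes S-adenosylmethionine, Gnmt, Gpx1 and Glo1. Cth had 15626 and 13961 under fasting, 9602 and 7243 under sucrose and 8687 and 9768 under fructose in controls, against 7126 and 6286 under fasting, 6130.1 and 6720.0 under sucrose and 6095 and 5963 under fructose in MED13-LKO mice, without overlap (log2 fold change -0.71 ± 0.08, adjusted p = 0.00015). Mat1a and Gnmt were lower at -0.67 and -0.65, while Oplah, which recycles oxoproline to glutamate, was higher at 0.36. Gclc and Gclm, the subunits of the rate-limiting ligase, and Gss did not pass the test (0.11, -0.14 and 0.12). For the sulfate donor, 1 of 6 tested genes was lower, Bpnt1 at -0.20, and Papss2, the main PAPS synthase of liver, stood at 0.21 (adjusted p = 0.08). With equal sums the counts were 3 lower and 3 higher of 7 for UDP-glucuronate (Slc35b1 was no longer called), 3 lower and 5 higher of 15 for glutathione (Cth, Mat1a and Gnmt were still lower, and Gpx1 turned to 0.10), and none lower and 3 higher of 6 for the sulfate donor, where Bpnt1 turned to 0.11.

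Other conjugation enzymes and the transporters of conjugates also went both ways. Of 13 tested acetyl-, methyl- and glycine-conjugating genes, 3 were higher and 6 lower. Tpmt, the thiopurine methyltransferase, was higher in MED13-LKO mice, running from 807 to 1185 with a median of 1021 in controls and from 2089 to 2834 with a median of 2354 in MED13-LKO mice (log2 fold change 1.26 ± 0.08, adjusted p = 8.1e-06). Nat8, which acetylates cysteine conjugates in the last step to mercapturates, was lower at -1.57 and Glyat at -0.47. Among 12 transporters 4 were lower, including the uptake carrier Slco1a1 (-1.27, also 1 of the genes higher in males) and the basolateral exporter Abcc3 (-0.86), and 2 were higher, Abcb1a (1.59) and Abcc4 (1.2). Tpmt and Abcb1a share 20.3% and 28.2% of their subsequences with other annotated genes. With equal sums the transporters were 4 lower and 7 higher, and the conjugating genes 2 lower, Nat8 among them, and 6 higher.

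Of 14 tested regulators, 4 were lower (Nr1i3, Rxra, Nr1h4 and Por) and 1 higher (Arnt). Nr1i3, the xenobiotic receptor CAR, had 5142 and 6191 under fasting, 4164 and 5756 under sucrose and 3321 and 7077 under fructose in controls, against 3538 and 3623 under fasting, 2321 and 2856 under sucrose and 2806 and 1794 under fructose in MED13-LKO mice, with overlap (log2 fold change -0.90 ± 0.19, adjusted p = 0.0064). The overlap came from control fructose replicate 1 alone. Nr1i3 shares 68.1% of its subsequences with other annotated genes, so its level depends on how shared reads were divided. The xenobiotic receptors Nr1i2 and Ahr stood at -0.28 and -0.34 and NRF2 itself, Nfe2l2, at 0.00, none of them called. Of 6 tested NRF2 target genes, Srxn1 was higher (log2 fold change 0.58 ± 0.09, adjusted p = 0.00098) and none was lower. Of 5 tested CAR and PXR targets, Cyp2c55 was higher (1.88) and Cyp3a11 and Cyp2c29 lower (-0.73 and -0.97). Of 5 tested aryl hydrocarbon receptor targets, Cyp1b1 was lower (-0.82) and none was higher. A single call among 5 or 6 genes does not exceed the 25.3% of all genes called between genotypes. Of 5 tested genes for deconjugation and hydrolysis, Arsa was higher (0.67) and Ephx1 and Ces1d lower (-0.77 and -0.37). With equal sums Nr1i3, Cyp3a11, Cyp2c29 and Ephx1 were still called lower, while Rxra, Nr1h4, Cyp1b1 and Ces1d were not called and Por turned to 0.05. More genes were called higher on that scale: 6 of the regulators (with 1 lower), 3 of the deconjugation genes (with 1 lower), 2 of the NRF2 targets and 1 of the aryl hydrocarbon receptor targets (with none lower).

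**Figure D5:**
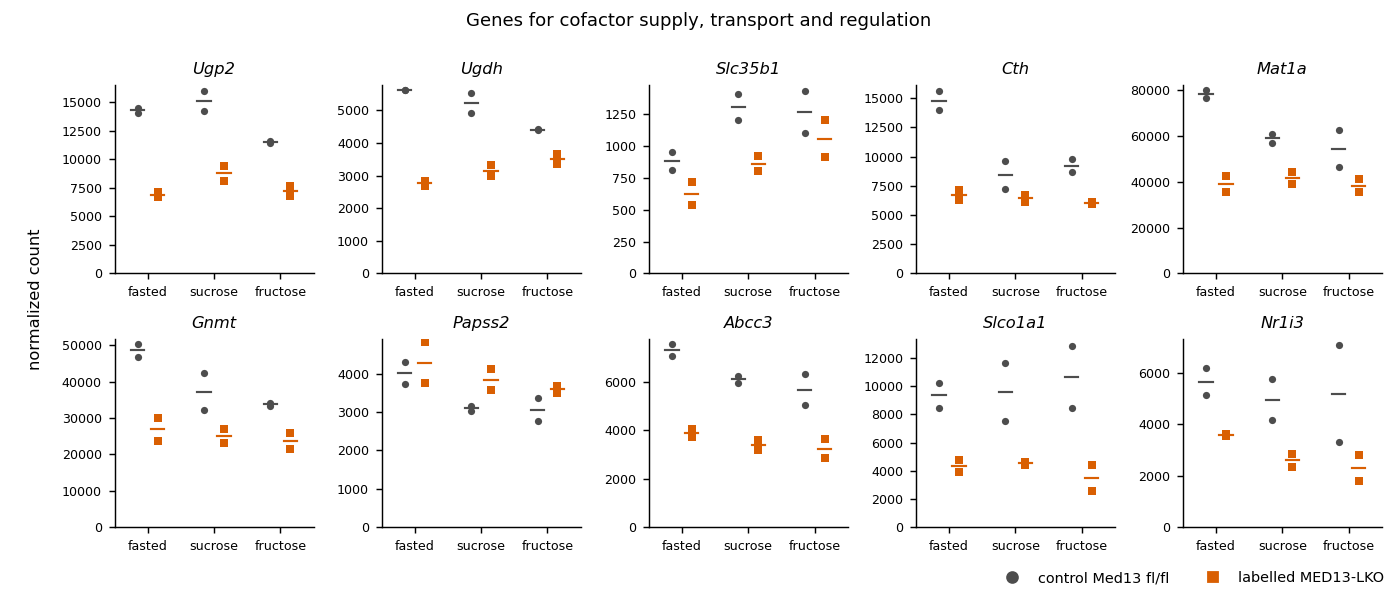
Normalized counts (vertical axes, each from 0) of 10 genes for donor supply and turnover (Ugp2, Ugdh, Slc35b1, Cth, Mat1a, Gnmt, Papss2), transport (Abcc3, Slco1a1) and regulation (Nr1i3), by diet, with control mice as grey circles, MED13-LKO mice as orange squares and means of 2 mice as bars. Ugp2, Ugdh and Cth were lower in all 6 MED13-LKO mice than in any control mouse, and Papss2 was not called between genotypes.

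Levels between genes were compared per kilobase of the longest annotated transcript. The order depends on that length, and shorter transcripts of the same genes were not tried. In controls Mgst1 led at 50706 normalized counts per kilobase, followed by Ugt2b5 at 17606, Gstm1 at 15337, Gsta3 at 14863, Gstp1 at 14557, Ugt2b36 at 10561 and Sult2a8 at 10191. Of these neighbours in the order, Mgst1 alone stood clear of the next gene in every control mouse, whereas Gstm1, Gsta3 and Gstp1 lay within each other's spread (SD 1982, 1291 and 3787, n = 6). In MED13-LKO mice Mgst1 still led at 33548, and Sult2a8 had 1856. Highest in their own subfamilies were Gstt1 (3971 in controls), Gstz1 (3399), Ugt1a1 (7178), Ugt2a3 (4652), Ugt3a2 (3905) and Sult1a1 (5389.9).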

How the data were processed

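The authors deposited 1 table of normalized counts for 12 mouse liver RNA libraries, estimated counts summed by gene and divided by a size factor for each library, so the values are a count signal and not whole reads; 0 columns belonged to other samples. The submitters' processing notes name Trim Galore 0.6.5, kallisto 0.46.0 and DESeq2 1.24.0. Of the 16346 Ensembl identifiers, 16212 were matched to symbols of GENCODE M21 (mm10). The gene set and the lists were chosen with earlier results of these data known.

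Genes with a mean of at least 10 were tested with limma 3.58.1 (R 4.3.3, trend) on log2(value + 1), in 1 model of the 6 groups without covariates, with Benjamini-Hochberg adjustment over the 12366 genes and a threshold of 0.05; SE is the standard error of the log2 fold change. Nothing states that mice of a group were independent litters, so p-values measure the spread between these samples, and 2 libraries a group set their precision. The steps were tested on simulated data. Depth was estimated from the smallest step of low values of genes with 1 transcript, in which 93.1% to 99.5% of values below 10 lay within 0.05 of a whole multiple. The count of whole reads was not recovered for genes with several transcripts, so no count model was used.

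Named genes were up to 12 called genes in each direction without overlap between genotypes, up to 6 for feeding, any called between sugars or in an interaction, the highest per length in each subfamily and up to 4 called genes a list. Sult1e1, Sult5a1, Sult1b1, Ugt2b37, Ugt2b38, Ugt1a10, Ugt2b36, Ugt2b1, Ugt2b34, Ugt3a1, Gsta1, Gsta4, Gstm2 to Gstm5 and Gstt2, and the list genes that were not called or exceeded 4, were named after their values were seen. Sequence sharing was counted over 31-base subsequences of annotated transcripts, and promoters were taken from RefSeq. Alternatives were pseudocounts of 0.1 and 10, no filter, equal 75th percentiles, equal sums, a replicate block, only the compared groups, sums over genes sharing sequence and leaving out each library. Python 3.11.15, NumPy 2.4.6, pandas 2.3.3 and matplotlib 3.10.9 were used.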

Additional observations from a re-analysis of the deposited data

How the results depend on the processing

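Of 570 values recomputed under alternatives for 30 results on named genes, 532 kept their side of the threshold, with no change of sign in a called gene. The alternatives differed: with equal sums 18 of the 30 did so, while 5 reversed, 6 lost a call and 1 gained one. Summed with genes sharing sequence 23 did so, while 3 reversed and 4 lost a call. The counts of called genes moved as follows. With only the compared groups fitted, the genotype count with fructose went from 10 to 2, that for fructose in controls from 5 to 0 and that for sucrose in MED13-LKO mice from 1 to 3. Over all genes the same counts went from 951 to 163, from 692 to 27 and from 706 to 764. With equal sums, sucrose in controls went from 3 to 1, and sucrose and fructose in MED13-LKO mice from 1 to 2 each. Summed with genes sharing sequence, fructose in controls went from 5 to 2. Signs reversed with equal sums for the called Gsto1 (0.15), Gstt1 (0.076) and Ugt3a2 (0.050). Of the genes not called, Gstz1 (0.22), Sult1a1 (0.26), Sult1d1 (0.25), Gsta4 (0.24), Gstm6 (0.25), Ugt2b34 (0.18) and Ugt3a1 (0.30) turned and were called higher, and Gstp1 (0.061) and Ugt2b1 (0.21) turned without a call. With equal 75th percentiles Ugt3a1 alone turned (0.0064). Summed with genes sharing sequence, Gsta1 turned to 0.033, Ugt1a5, Ugt1a1 and Ugt1a7c to -0.088, and Ugt2b37 and Ugt2b38 to -0.52, since the sum is then that of the group. Leaving out each library gave 23 to 31 calls between genotypes over the diets, 6 to 18 when fasted, 2 to 15 with sucrose and 3 to 15 with fructose. For feeding over both genotypes it gave 6 to 13, for sucrose in controls 1 to 3, for fructose in controls 0 to 10, for sucrose in MED13-LKO mice 0 to 2 and for fructose in MED13-LKO mice 1 to 2. A replicate block gave 28 calls over the diets, 14 when fasted, 10 with sucrose, 8 with fructose and 8 for feeding. A crossed pairing of the fructose mice, chosen after seeing the data, gave 11 with fructose. Deviations of mice with equal numbers correlated between genotypes at -0.0181, -0.0266 and -0.142 in the 3 diets. With 2 mice a group this cannot decide whether mice were paired. The submitters' short labels number fasted mice from 1 and fed mice from 2, so the block joined unlike numbers across diets. For the other moves the cause was not tested.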
